A study of Mus musculus with 12 samples.

Results

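Amino acid transporter transcripts were followed in mouse CD8+ T cells that had been expanded with or without dichloroacetate (DCA), an inhibitor of the pyruvate dehydrogenase kinases. The genes were chosen by symbol: those of the authors' deposited edgeR table whose names start with Slc1a, Slc3a, Slc6a, Slc7a, Slc36a, Slc38a or Slc43a. This gave 29 of the 15067 genes in that table, and each was joined by its gene ID to the count matrix of 56748 genes. Of the 29, 27 are named as transporters. The other members, Slc36a3os and Slc7a6os, are opposite-strand genes that carry a transporter's name and encode none. The symbols also bring in Slc43a3, which carries purine nucleobases, Slc6a6, which carries taurine, and Slc6a8, which carries creatine.

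Bulk RNA was sequenced from cells sorted for CD8 on day 7. Splenocytes had been stimulated with the peptide of their transgenic T cell receptor for 24 h and then grown in IL-2 for 6 days. There were 4 groups of 3 libraries: experiment 2 with 5 mM DCA, experiment 2 untreated, experiment 1 with 5 mM DCA and experiment 1 untreated. Each of the 6 mice (3 per experiment) gave 1 library with and 1 without the drug, so replicates are separate mice and each mouse is numbered 1 to 3 within its experiment. The experiment 2 mice are labelled pmel-1 (the B6.Cg-Thy1a/Cy background with the transgene Tg(TcraTcrb)8Rest/J). The experiment 1 mice are labelled OT-1 by strain and genotype (C57BL/6-Tg(TcraTcrb)1100Mjb/J), although their sample titles read Pmel-1. The libraries were made in a pair of technical batches, and strain, batch and experiment cannot be told apart. All groups carry a transgenic receptor, so no group stands for a polyclonal T cell population, and the labels give no age or sex.

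Cells take up amino acids through families of solute carriers with different partners and driving forces. Slc3a2 (CD98 heavy chain) is a glycoprotein that brings light chains of the Slc7 family to the cell surface, among them Slc7a5 (LAT1), which exchanges intracellular glutamine for leucine and other large neutral amino acids. Glutamine enters through the exchanger Slc1a5 (ASCT2) and the sodium-coupled Slc38a1 and Slc38a2 (SNAT1 and SNAT2). Arginine and lysine enter through Slc7a1 (CAT1). Antigen stimulation of T cells is known to raise several of these carriers, and loss of Slc7a5 or Slc1a5 in mice limits T cell growth. Other members work on lysosomes, where Slc38a9 senses arginine and passes the signal to the Rag GTPases that recruit mTORC1.

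Between 28039700 and 41051100 counts (to 6 digits) were assigned per library, and 3 counts, the limit a count of 0 allows, stood for 0.0731 to 0.107 CPM (a gene's reads relative to all reads counted), which covers counting error only. The 29 genes took 0.132% to 0.144% of the counts in experiment 2 DCA libraries, 0.119% to 0.132% in experiment 2 untreated, 0.0936% to 0.101% in experiment 1 DCA and 0.0952% to 0.0991% in experiment 1 untreated libraries. These are shares of raw counts. The TMM scaling factors used for single genes below were 1.12 to 1.17 in experiment 2 and 0.818 to 0.934 in experiment 1 libraries. Dividing by them narrows the gap between the experiments. More genes were detected per library in experiment 2 (23635 to 26571) than in experiment 1 (18382 to 19551). Cd8a, the CD8 alpha chain, was at 274 to 738 CPM and Cd4 at 0.638 CPM or less. In bulk samples, fewer cells of a type and less RNA per cell cannot be told apart.

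The transporter pool was carried by a handful of genes. Levels are compared between genes only as RPKM, which is TMM-scaled CPM per kilobase of the gene length in the authors' deposited table. By mean RPKM over the 12 libraries Slc3a2 came first at 75.3, followed by Slc1a5 at 41.2, Slc43a3 at 23.7, Slc38a2 at 21.1, Slc36a3os at 15.6, Slc7a6 (a y+L light chain) at 9.30, Slc7a5 at 8.46 and Slc38a1 at 6.68. This order, and ratios and shares in RPKM, depend on the deposited lengths. Slc38a1 (17236 bases) averaged 115 CPM and Slc43a3 (4464 bases) 106 CPM. Whether these lengths match the transcripts made in these cells was not tested. Of the 27 transporters, 4 reached 10 RPKM, 16 reached 1 RPKM and 11 stayed under 1 RPKM, down to 0.0594 for the creatine carrier Slc6a8. The order was not the same in the separate experiments. Slc38a2 lay at 12.4 to 15.2 RPKM in experiment 2 and 26.6 to 31.9 RPKM in experiment 1, whereas Slc1a5 lay at 53.4 to 75.8 RPKM in experiment 2 and 16.5 to 24.8 RPKM in experiment 1. In experiment 1, Slc43a3 (17 to 27.3 RPKM) and Slc1a5 overlapped in range, and so did Slc7a5 (8.60 to 11.8 RPKM) and Slc7a6 (5.91 to 11.7 RPKM).

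**Figure D1:**
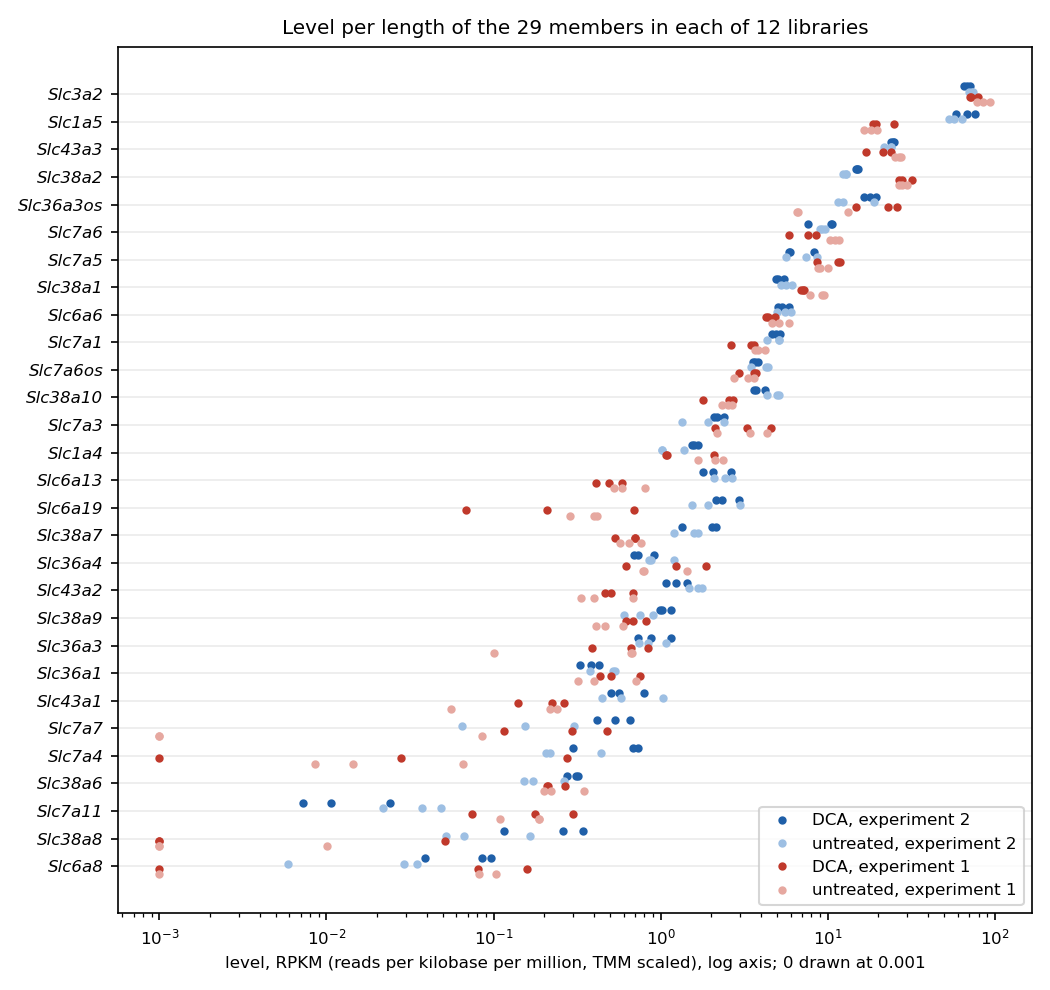
Level of each of the 29 genes in RPKM (log axis), 1 point per library in 4 groups of 3 libraries, with values of 0 drawn at the left edge. Slc3a2 lies at the top at a mean of 75.3 RPKM and Slc6a8 at the bottom at 0.0594 RPKM, and Slc1a5 and Slc38a2 sit apart between the experiments.

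A further 38 genes with these family names are in the count matrix and not in the authors' deposited table, and none of them reached 1 CPM in any library. They include the glutamate transporter gene Slc1a2, at most 0.779 CPM, and the glycine transporter gene Slc6a9, at most 0.747 CPM. The genes Slc38a4 and Slc6a14 had 0 counts in all 12 libraries.

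Few of the 29 genes were called for DCA. Over both experiments, edgeR's quasi-likelihood test with a term for experiment called 4 of 29 members (13.8%) at an adjusted p under 0.05. The same test called 16.8% of the 15688 genes tested, so the members were called about as often as genes at large. Slc38a9, Slc7a7 and Slc36a3os rose, against 7.01% of all genes called higher, and Slc38a1 fell, against 9.8% of all genes called lower. Over all genes 1100 of 2638 calls were higher under TMM scaling and 1058 of 2738 under RLE scaling. Cyclic loess with limma, which changes the scaling and the test together, gave 1231 of 2267. The members' median log2 fold change was 0.05, beside -0.02 over all genes. All 29 members had passed the filter on low counts, with 118 (Slc6a8) to 100872 (Slc3a2) counts in total. In the authors' deposited table, 2 of the 29 had a false discovery rate under 0.05, Slc38a9 at 0.0358 and Slc7a7 at 0.0387, beside 1588 of its 15067 genes (10.5%).

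**Figure D2:**
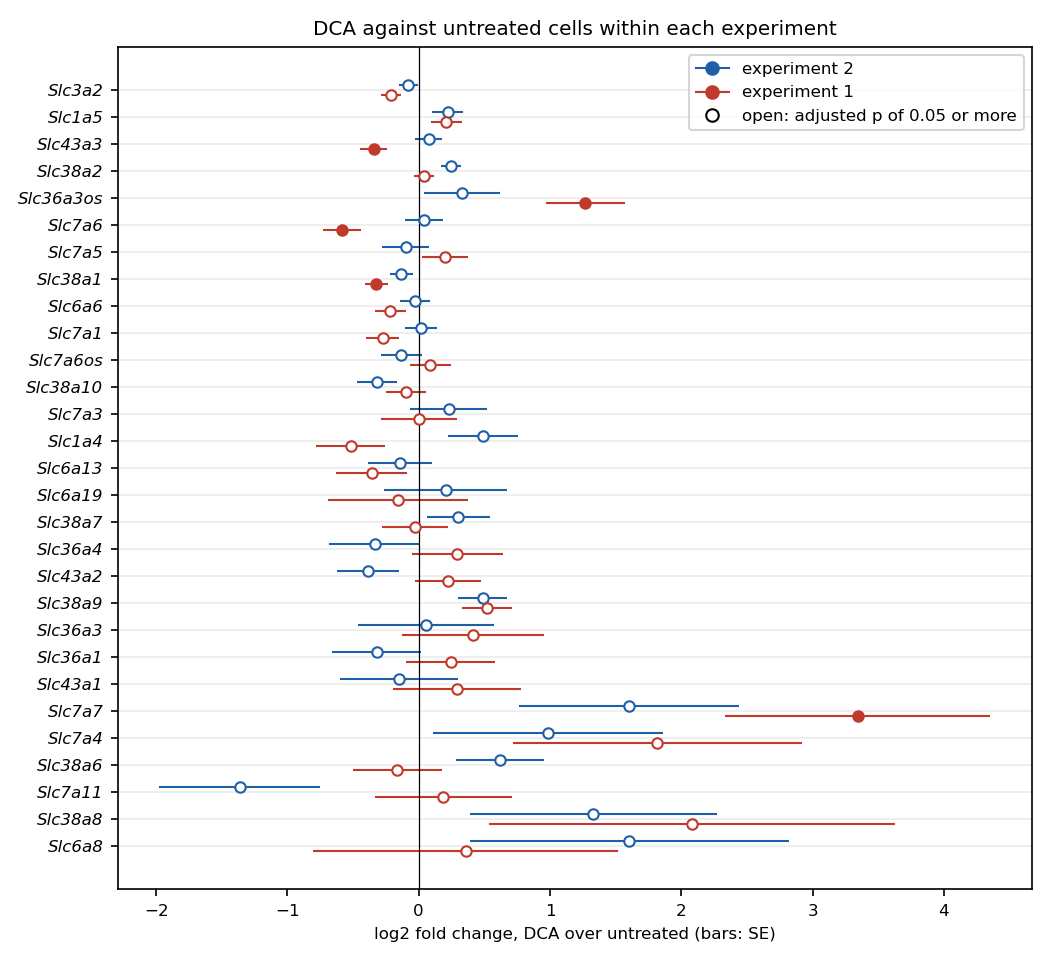
Log2 fold change, DCA over untreated, of each of the 29 genes in experiment 2 and in experiment 1, with bars of 1 standard error and filled points at an edgeR adjusted p under 0.05. No point of experiment 2 is filled, and in experiment 1 the filled points are Slc7a7 (3.34), Slc36a3os (1.27), Slc38a1 (-0.32), Slc43a3 (-0.34) and Slc7a6 (-0.58).

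Slc38a9, the lysosomal arginine sensor and transporter upstream of mTORC1, was higher with DCA in each of the 6 mice. In experiment 1 it stood at 11.3, 13.6 and 10.4 CPM in DCA libraries of mice 1 to 3, against 6.87, 7.75 and 9.96 CPM in their untreated libraries. In experiment 2 it stood at 19.2, 16.6 and 17.1 CPM in DCA libraries, against 10.1, 12.6 and 15.1 CPM in untreated libraries. The groups did not overlap in either experiment. The log2 fold change over both experiments was 0.50 (SE 0.13, edgeR adjusted p = 0.0156). The size was alike in the separate experiments, 0.49 in experiment 2 (adjusted p = 0.168) and 0.52 in experiment 1 (adjusted p = 0.0769), neither of which passed the threshold. The difference of these effects was -0.03 (SE 0.27, adjusted p = 0.98). The call was kept in each of the 12 fits that left out 1 library, with log2 fold changes of 0.45 to 0.58. An exon of Slc38a9 overlaps Gm47827 on the opposite strand in GENCODE's GRCm38 annotation, and that gene had at most 0.458 CPM.

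Slc7a7 (y+LAT1), a light chain of Slc3a2 that exports arginine and lysine in exchange for neutral amino acids and sodium, was scarce and higher with DCA. In experiment 1 it had 10, 44 and 25 counts in DCA libraries (0.382, 1.58 and 0.974 CPM), against 0, 0 and 8 counts in untreated libraries (0, 0 and 0.283 CPM). In experiment 2 it had 60, 79 and 55 counts in DCA libraries (1.76, 2.19 and 1.39 CPM), against 7, 17 and 39 counts in untreated libraries (0.214, 0.515 and 1.01 CPM). Levels were higher with DCA in 6 of 6 mice, and the groups did not overlap in either experiment. The log2 fold change was 2.31 over both experiments (SE 0.67, edgeR adjusted p = 0.0276), 1.60 in experiment 2 (SE 0.84, adjusted p = 0.338) and 3.34 in experiment 1 (SE 1.01, adjusted p = 0.0355). The size in experiment 1 is poorly fixed, since its untreated libraries held 8 counts, all in 1 library, and it ranged from 2.72 to 7.98 with 1 library left out.

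The call of Slc7a7 over both experiments was lost when mouse 2's DCA library of experiment 1, mouse 2's DCA library of experiment 2, or the untreated library of mouse 1 or 2 of experiment 2 was left out (adjusted p = 0.0547 to 0.0593). The experiment 1 call was lost without DCA of mice 2 and 3 or untreated of mice 1 and 2 of that experiment, or without DCA of mice 1 to 3 or untreated of mouse 2 of experiment 2, each left out singly (adjusted p = 0.0503 to 0.101), and in a fit of the experiment 1 libraries by themselves (0.0906). Without untreated of mouse 3, which gave the value of 7.98, the remaining untreated libraries of experiment 1 held 0 counts. Macrophages also express Slc7a7. The summed level of 5 myeloid markers was 16.3 to 19.6 CPM in experiment 2 DCA libraries (5 of 5 detected) and 8.01 to 16.9 CPM in untreated libraries (4 of 5, Lyz2 at 0), and its part in the result was not tested. In experiment 1 the sum was 10.9 to 30.5 CPM with DCA and 7.91 to 10.9 CPM without, and Lyz2, Csf1r and Adgre1 were at 0 in all 6 libraries. The detected markers there were Cd68 and Cd14. In experiment 2 the sum was mostly Cd68, at 15.6 to 17.7 CPM with DCA and 7.47 to 16.5 CPM without. Lyz2, Csf1r and Adgre1 were at 0.447 CPM or less there. Over both experiments neither Cd68 (log2 0.58, edgeR adjusted p = 0.143) nor Cd14 (log2 1.27, adjusted p = 0.133) was called for DCA. Slc7a7 also shares exon sequence with Oxa1l on the opposite strand. Oxa1l stood at 19.7 to 34.3 CPM, with a log2 fold change of -0.10 (edgeR adjusted p = 0.514).

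Slc36a3os, an antisense transcript in GENCODE's annotation named after the proton-coupled transporter Slc36a3, rose with DCA in experiment 1. It stood there at 8.17, 12.8 and 14.4 CPM in DCA libraries, against 3.71, 3.64 and 7.35 CPM in untreated libraries, with no overlap. Its level in experiment 2 was 10.9, 9.11 and 10.1 CPM in DCA libraries, against 6.48, 6.88 and 10.5 CPM in untreated libraries, which overlap. The fitted log2 change was 0.79 over both experiments (SE 0.24, edgeR adjusted p = 0.0324; higher in 5 of 6 mice), 0.33 in experiment 2 (adjusted p = 0.618) and 1.27 in experiment 1 (SE 0.30, adjusted p = 0.0101). The experiment 1 call was kept whichever library was left out. The call over both experiments was lost without any 1 of 7 libraries (adjusted p = 0.0543 to 0.0783): DCA of mice 2 and 3 and untreated of mice 1 and 2 in experiment 1, and DCA of mouse 1 and untreated of mice 1 and 2 in experiment 2. Slc36a3 itself was at 0.238 to 2.7 CPM and was not called in any comparison.

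Slc38a1 (SNAT1), a sodium-coupled importer of glutamine and other small neutral amino acids, was lower with DCA. Its level in experiment 1 was 119, 123 and 124 CPM in DCA libraries, against 159, 164 and 135 CPM in untreated libraries, with no overlap. Experiment 2 had 86.5, 85.1 and 94.7 CPM in DCA libraries, against 96.5, 105 and 90.8 CPM in untreated libraries, which overlap. On the log2 scale the change was -0.23 over both experiments (SE 0.07, edgeR adjusted p = 0.0303; lower in 5 of 6 mice), -0.13 in experiment 2 (adjusted p = 0.471) and -0.32 in experiment 1 (SE 0.09, adjusted p = 0.0217). The call was lost under several settings. Over both experiments the log2 fold change was -0.23 with a term per mouse (adjusted p = 0.0784) and -0.23 with no filter on low counts (adjusted p = 0.0633). It was smaller under cyclic loess with limma (-0.12, adjusted p = 0.207). Leaving out any 1 of 8 libraries also lost it (adjusted p = 0.0628 to 0.0776): DCA of mice 1 to 3 and untreated of mice 1 and 2 in experiment 1, and DCA of mice 1 and 2 and untreated of mouse 2 in experiment 2. Of the 12 fits that left out 1 library, 3 kept the experiment 1 call: those without DCA of mouse 2 or 3 or untreated of mouse 3 of that experiment. The other 9 had adjusted p = 0.0598 to 0.0883. That call was also lost with a term per mouse (-0.32, adjusted p = 0.0501), with a filter of 5 CPM in 3 libraries (-0.23, 0.0617), in a fit of the experiment 1 libraries by themselves (-0.25, 0.12) and under cyclic loess with limma (-0.16, 0.221).

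**Figure D3:**
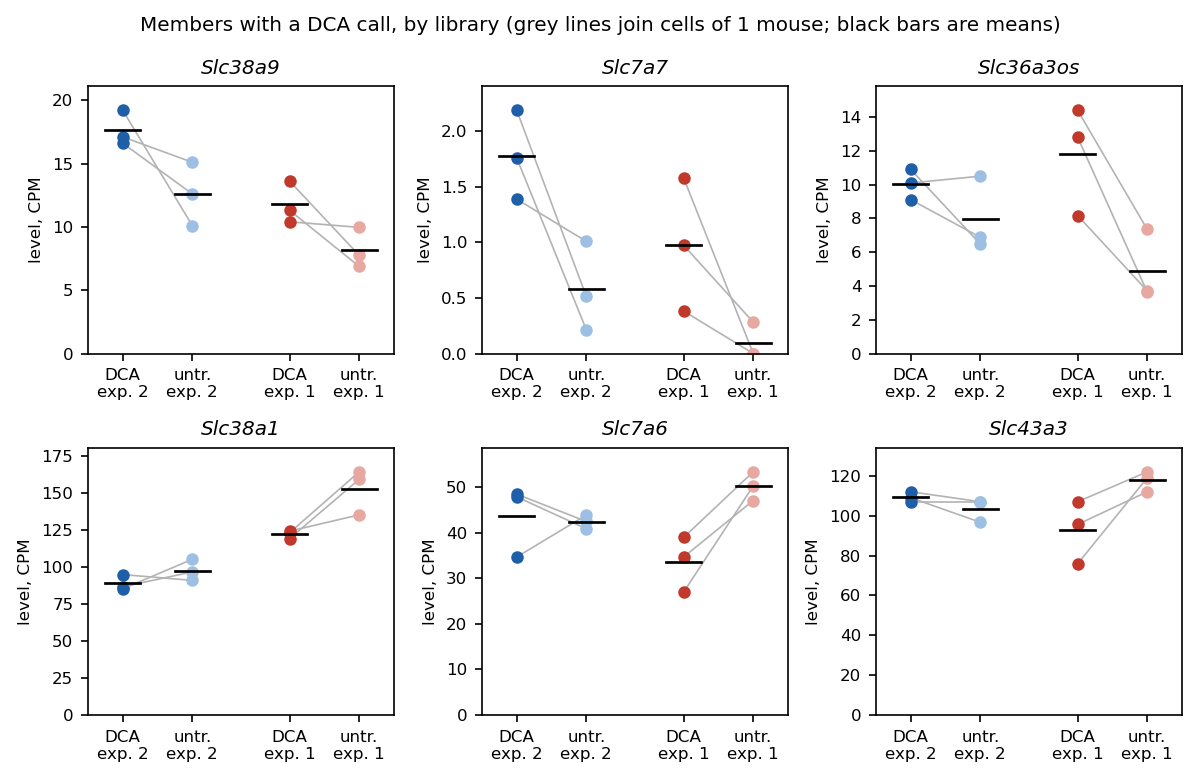
CPM (TMM-scaled) of the 6 genes called for DCA over both experiments or in experiment 1, 1 point per library and lines joining the libraries of 1 mouse. Slc38a9 and Slc7a7 are higher with DCA in all 6 mice, and Slc38a9 lies between 10.4 and 19.2 CPM with DCA and between 6.87 and 15.1 CPM without.

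Promoter sequence is shown for the members with a match to the ATF4 response motif and for Slc38a9, whose call over both experiments was kept in all 12 fits that left out 1 library. RefSeq's table (GRCm38.p6) gave promoters for 21 of the 29 members, and the 250 bases before each start were searched on both strands for TGATGNAA, the core of the C/EBP-ATF response element bound by the amino acid stress factor ATF4, and for CACGTG, an E-box bound by MYC. Below, capitals mark TGATGNAA or its reverse complement, each window is read 5′ to 3′ on the gene's strand and ends at the base before the start site. For Slc7a7 the most upstream of its annotated starts is given.
Slc7a11, chr3:50443614-50443863, minus strand: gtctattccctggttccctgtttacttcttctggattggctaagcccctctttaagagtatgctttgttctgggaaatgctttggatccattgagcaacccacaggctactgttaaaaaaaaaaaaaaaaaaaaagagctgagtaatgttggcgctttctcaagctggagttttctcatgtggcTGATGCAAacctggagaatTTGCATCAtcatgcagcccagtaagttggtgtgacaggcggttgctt
Slc7a7, chr14:54417945-54418194, minus strand: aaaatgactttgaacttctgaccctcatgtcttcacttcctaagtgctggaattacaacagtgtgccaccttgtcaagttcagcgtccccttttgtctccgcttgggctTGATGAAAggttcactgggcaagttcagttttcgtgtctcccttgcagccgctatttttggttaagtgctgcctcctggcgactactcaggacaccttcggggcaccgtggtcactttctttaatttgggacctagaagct
Slc38a9, chr13:112660516-112660765, plus strand: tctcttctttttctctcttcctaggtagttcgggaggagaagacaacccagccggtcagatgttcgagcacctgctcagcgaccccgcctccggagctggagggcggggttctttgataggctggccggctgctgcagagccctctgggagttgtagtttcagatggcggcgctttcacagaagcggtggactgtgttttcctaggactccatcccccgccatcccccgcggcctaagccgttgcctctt
TGATGNAA was found in 2 of 21 members, Slc7a11 and Slc7a7, beside 3.91% of the 27025 genes of the table. In Slc7a11 the matches begin 66 and 47 bases before the start, and in Slc7a7 the match shown begins 141 bases before it. A start of Slc7a7 further downstream has a different match, TGATGCAA, 243 bases before it, and the windows of its other starts hold none. A gene was counted if any of its starts had a match, so genes with many starts have more chances. The 27025 genes had 32851 promoters. The Slc38a9 window holds no match. CACGTG was found in 3 of 21 members, Slc36a1, Slc38a7 and Slc43a1, beside 6.86% of genes. None of these 3 was called for DCA. Slc1a5, Slc38a1, Slc43a3, Slc6a6, Slc6a8, Slc7a3, Slc7a4 and Slc7a5 had no promoter there and were not searched.

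Within experiment 1, 5 of 29 members were called (17.2%), beside 16.7% of all genes. Slc7a7 and Slc36a3os were higher, beside 5.67% of all genes called higher, and Slc38a1, Slc7a6 and Slc43a3 were lower, beside 11% of all genes called lower. Of the calls over all genes there, 889 of 2622 were higher under TMM, 905 of 2547 under RLE and 1083 of 2124 under cyclic loess with limma. Slc7a6 (y+LAT2) is a widely expressed Slc3a2 light chain with the same exchange mode as Slc7a7. Experiment 1 had 27, 39 and 34.7 CPM in DCA libraries, against 50.3, 53.4 and 47.1 CPM in untreated libraries. In experiment 2 the gene was at 48.5, 34.7 and 47.9 CPM in DCA libraries, against 42.5, 43.9 and 40.9 CPM in untreated libraries. The groups were apart in experiment 1 and overlapped in experiment 2. The log2 fold change was 0.04 in experiment 2 (SE 0.15, adjusted p = 0.934) and -0.58 in experiment 1 (SE 0.15, edgeR adjusted p = 0.0147). The experiment 1 call was lost without mouse 1's DCA library (adjusted p = 0.0601) or mouse 2's untreated library (0.0519) of that experiment. It was also lost in a fit of the experiment 1 libraries by themselves (0.0515).

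Slc43a3, the purine nucleobase carrier, was also lower in experiment 1, at 75.9, 107 and 95.6 CPM in DCA libraries against 119, 122 and 112 CPM in untreated libraries. For experiment 2 the values were 112, 107 and 109 CPM in DCA libraries, against 107, 107 and 96.7 CPM in untreated libraries. The experiment 1 groups did not overlap. The fitted log2 change was 0.08 in experiment 2 (adjusted p = 0.79) and -0.34 in experiment 1 (SE 0.10, edgeR adjusted p = 0.0373). This call was kept in only 2 of 12 fits that left out 1 library, those without mouse 2's DCA or mouse 3's untreated library of experiment 1, and the other 10 had adjusted p = 0.061 to 0.129. It was also lost with a filter of 5 CPM in 3 libraries (-0.25, adjusted p = 0.0786) and under cyclic loess with limma (-0.20, 0.193). A fit of the experiment 1 libraries by themselves lost it too.

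Within experiment 2, 0 of 29 members were called by edgeR, beside 4.57% of all genes, and 3 had an unadjusted p under 0.05 (Slc38a2, Slc38a9 and Slc7a11), beside 18.3% of all genes. Cyclic loess with limma called 1 member there, Slc38a2, and so did edgeR on the libraries of experiment 2 alone, while DESeq2 and limma-voom called 0. Over all genes 372 of 717 calls there were higher under TMM, 334 of 780 under RLE and 374 of 580 under cyclic loess with limma. The difference of the DCA effects between experiments was called for 0 of 29 members, beside 0.331% of all genes, and 4 had an unadjusted p under 0.05 (Slc7a6, Slc43a3, Slc1a4 and Slc36a3os), beside 14.2% of all genes. The difference, experiment 2 minus experiment 1, was 0.62 for Slc7a6 (SE 0.21, edgeR adjusted p = 0.179) and 0.42 for Slc43a3 (SE 0.15, adjusted p = 0.205). It was 1.01 for Slc1a4 (SE 0.37, adjusted p = 0.224) and -0.94 for Slc36a3os (SE 0.41, adjusted p = 0.319). For none of these genes was a different response in the experiments shown.

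Slc3a2, Slc7a5, Slc1a5 and Slc38a2 were not called for DCA by edgeR in the fit of all 12 libraries, unlike Slc38a1 above. Slc3a2, the shared heavy chain, stood in experiment 1 at 252, 254 and 280 CPM in DCA libraries against 276, 333 and 300 CPM in untreated libraries. In experiment 2 it stood at 242, 232 and 252 CPM in DCA libraries against 260, 259 and 248 CPM in untreated libraries. The ranges overlapped in both experiments, and the log2 fold change was -0.14 over both (SE 0.06, edgeR adjusted p = 0.0991). DESeq2 called the fall (-0.15, adjusted p = 0.0404), while cyclic loess put it at -0.01 (adjusted p = 0.923).

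Slc7a5 (LAT1) stood in experiment 1 at 42.7, 31.9 and 43.7 CPM in DCA libraries against 32.5, 37.2 and 33.3 CPM in untreated libraries. Its level in experiment 2 was 30.8, 21.8 and 22.2 CPM in DCA libraries against 31.9, 27.3 and 20.9 CPM in untreated libraries. The groups overlapped in both experiments, and the log2 fold change was 0.05 (SE 0.13, edgeR adjusted p = 0.846). Per length, Slc3a2 exceeded the sum of its light chains among the members about equally in each group. The ratio averaged 4.14 ± 0.569 in experiment 2 DCA, 4.36 ± 0.316 in experiment 2 untreated, 4.03 ± 0.0525 in experiment 1 DCA and 4.19 ± 0.22 in experiment 1 untreated libraries (SD, n = 3 each).

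Slc1a5 (ASCT2), the glutamine and neutral amino acid exchanger, stood in experiment 1 at 80.9, 78.6 and 103 CPM in DCA libraries against 75.8, 82.3 and 69.0 CPM in untreated libraries. Experiment 2 had 316, 286 and 245 CPM in DCA libraries against 267, 237 and 223 CPM in untreated libraries. The groups overlapped in both experiments, and the log2 fold change was 0.22 (SE 0.08, edgeR adjusted p = 0.0939). It passed the threshold under cyclic loess (0.33, adjusted p = 0.0189), with a filter of 5 CPM in 3 libraries (0.26, adjusted p = 0.0227) and without mouse 3's DCA library of experiment 2 (0.26, adjusted p = 0.0389).

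Slc38a2 (SNAT2), a sodium-coupled carrier known to be induced by amino acid shortage, stood in experiment 1 at 245, 282 and 238 CPM in DCA libraries against 246, 235 and 262 CPM in untreated libraries. In experiment 2 the gene was at 133, 131 and 134 CPM in DCA libraries against 113, 113 and 109 CPM in untreated libraries. The groups overlapped in experiment 1 and were apart in experiment 2. On the log2 scale the change was 0.14 over both experiments (edgeR adjusted p = 0.122) and 0.25 in experiment 2 (SE 0.07, adjusted p = 0.0793). Over both experiments it passed under cyclic loess (0.26, adjusted p = 0.00491) and the filter of 5 CPM in 3 libraries (0.19, adjusted p = 0.0226).

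Slc7a1 (CAT1), the main arginine and lysine importer of many cells, stood in experiment 1 at 39.9, 30.4 and 41.8 CPM in DCA libraries against 48.8, 42.3 and 44.4 CPM in untreated libraries, with no overlap. For experiment 2 the values were 59.6, 56.8 and 53.5 CPM in DCA libraries against 59.2, 58.7 and 49.7 CPM in untreated libraries, which overlap. Its log2 fold change was 0.02 in experiment 2 (adjusted p = 0.965) and -0.27 in experiment 1 (SE 0.12, edgeR adjusted p = 0.154). Neither passed the threshold.

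Slc1a4 (ASCT1), an exchanger of alanine, serine, cysteine and threonine, had opposite signs in the experiments. In experiment 1 the gene was at 4.24, 8.25 and 4.29 CPM in DCA libraries against 8.27, 6.56 and 9.25 CPM in untreated libraries. In experiment 2 it stood at 6.61, 6.09 and 6.20 CPM in DCA libraries against 5.44, 4 and 4.02 CPM in untreated libraries. The groups overlapped in experiment 1 and were apart in experiment 2. The log2 fold change was 0.49 in experiment 2 (SE 0.26, adjusted p = 0.355) and -0.52 in experiment 1 (SE 0.26, edgeR adjusted p = 0.205), and their difference did not pass the test, as given above.

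Slc43a2 (LAT4), a uniporter of branched-chain amino acids, phenylalanine and methionine, stood in experiment 1 at 6.84, 5.09 and 4.68 CPM in DCA libraries against 4.02, 3.37 and 6.85 CPM in untreated libraries. Its level in experiment 2 was 14.5, 10.8 and 12.4 CPM in DCA libraries against 16.7, 14.7 and 17.8 CPM in untreated libraries. The groups overlapped in experiment 1 and were apart in experiment 2, where the log2 fold change was -0.39 (SE 0.24, edgeR adjusted p = 0.433). In experiment 1 it was 0.22 (SE 0.25, adjusted p = 0.614).

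Slc7a11 (xCT), the Slc3a2 light chain that imports cystine in exchange for glutamate, was scarce. For experiment 1 the values were 2.48, 1.04 and 4.17 CPM in DCA libraries against 1.52, 2.59 and 2.61 CPM in untreated libraries. In experiment 2 it had 5, 12 and 4 counts in DCA libraries (0.147, 0.332 and 0.101 CPM) against 17, 10 and 26 counts in untreated libraries (0.519, 0.303 and 0.675 CPM). The groups overlapped in both experiments. The fitted log2 change was -1.36 in experiment 2 (SE 0.61, edgeR adjusted p = 0.25) and 0.19 in experiment 1 (SE 0.52, adjusted p = 0.862).

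The 25 members not called over both experiments had adjusted p-values of 0.0939 to 0.978. The 15 of them with a mean of at least 5 CPM had log2 fold changes between -0.27 and 0.22, while the scarcer ones ranged up to 1.51. By role, none of the 3 system L members (Slc7a5, Slc43a1, Slc43a2), the pair of Slc1 exchangers, the 3 proton-coupled Slc36 carriers or the 4 Slc6 carriers was called. Of the 5 cationic and y+L carriers 1 rose (Slc7a7), and of the 7 Slc38 members 1 rose (Slc38a9) and 1 fell (Slc38a1).

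More members were called between the experiments than with DCA, and so were more of all genes. In untreated cells, 17 of 29 members were called between experiment 2 and experiment 1 (58.6%), beside 51.8% of all genes, with 11 higher (26.7% of all genes) and 6 lower in experiment 2 (25.2% of all genes). In DCA cells, 16 of 29 were called (55.2%), beside 52.3% of all genes, with 12 higher (28.1% of all genes) and 4 lower (24.1% of all genes). The member medians were 0.31 in untreated and 0.38 in DCA cells, beside 0.11 over all genes in both. The all-gene median in untreated cells was 0.12 under RLE scaling and -0.01 under cyclic loess with limma. Single genes moved by more under cyclic loess with limma, where the untreated log2 difference was 2.10 for Slc1a5 and -0.67 for Slc38a2, against 1.68 and -1.14 under TMM. The members called in both arms numbered 13, all in the same direction, 10 higher and 3 lower in experiment 2. These are 81.2% of the DCA calls and 76.5% of the untreated calls. No such share was computed over all genes, so these percentages have no reference. Within each experiment the arms came from the same mice, so their agreement is not independent.

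**Figure D4:**
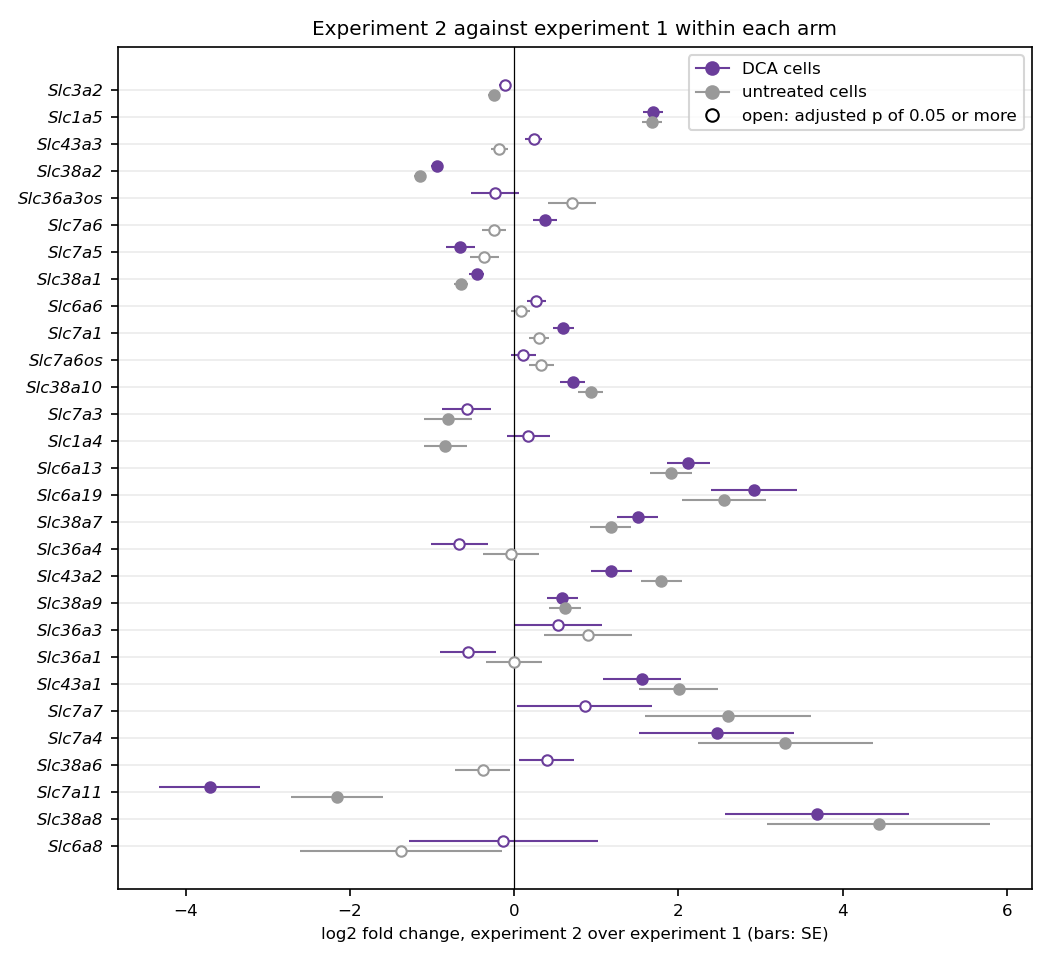
Log2 fold change, experiment 2 over experiment 1, of each of the 29 genes in DCA and in untreated cells, with bars of 1 standard error. Slc1a5 lies at 1.69 and 1.68, Slc38a2 at -0.94 and -1.14 and Slc7a11 at -3.71 and -2.16.

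Cell type markers also moved between the experiments. Marker values here are CPM per library total, unlike the TMM-scaled results on single transporter genes. The TMM factors were 1.12 to 1.17 in experiment 2 and 0.818 to 0.934 in experiment 1 libraries. Scaling divides by them, so it lowers experiment 2 values and raises experiment 1 values. The summed level of the NK markers Klrb1c and Ncr1 was 0.0579 to 1.34 CPM in experiment 2 and 5.01 to 11.7 CPM in experiment 1, nearly all of it Klrb1c. The T cell receptor subunit gene Cd3e stood at 328 to 455 CPM in experiment 2 and 74.0 to 105 CPM in experiment 1. The other CD3 subunit genes were not higher in experiment 2, and TMM scaling moves them further down there relative to experiment 1. Cd3g stood at 1338 to 1876 CPM in experiment 2 and 1744 to 2289 CPM in experiment 1, and Cd3d at 901.5 to 1207 and 1017 to 1457 CPM. Cd8a was higher in experiment 2 (560.6 to 737.9 against 273.9 to 378.5 CPM), also after TMM scaling (479 to 662 against 335 to 416 CPM). Cd8b1 was at 575.5 to 770 against 471.2 to 532.2 CPM per library total. This gap depends on the scaling, so no direction is given for Cd8b1. The part of these markers in the differences between the experiments was not tested.

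Glutamine carriers went in opposite directions. Slc1a5 was 3.22-fold higher in experiment 2 than in experiment 1 in DCA cells (log2 1.69, SE 0.12, edgeR adjusted p = 2.4e-08) and 3.2-fold higher in untreated cells (log2 1.68, SE 0.12, adjusted p = 2.33e-08). Slc38a2 was lower in experiment 2, by log2 -0.94 in DCA cells (SE 0.07, adjusted p = 6.62e-08) and -1.14 in untreated cells (SE 0.08, adjusted p = 7.55e-09). Slc38a1 was lower too, by -0.46 in DCA cells (adjusted p = 0.000503) and -0.65 in untreated cells (adjusted p = 2e-05). The experiment 2 libraries lay wholly above the experiment 1 libraries for Slc1a5, and wholly below them for Slc38a1 and Slc38a2, in the CPM values given above.

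Per length, the ratio of Slc1a5 to Slc38a2 averaged 4.51 ± 0.599 in experiment 2 DCA, 4.58 ± 0.357 in experiment 2 untreated, 0.738 ± 0.169 in experiment 1 DCA and 0.651 ± 0.0924 in experiment 1 untreated libraries (SD, n = 3 each). Slc1a5 made up 29.6% ± 2.68 of the summed RPKM of the 27 transporters in experiment 2 DCA, 26.5% ± 1.16 in experiment 2 untreated, 11% ± 1.27 in experiment 1 DCA and 8.65% ± 0.53 in experiment 1 untreated libraries. The sum itself was 228 ± 11.7 RPKM in experiment 2 DCA, 219 ± 11.2 in experiment 2 untreated, 191 ± 12.6 in experiment 1 DCA and 210 ± 11.2 in experiment 1 untreated libraries. The 5 highest transporters held 79.2% to 81.4% of it in all 12 libraries.

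**Figure D5:**
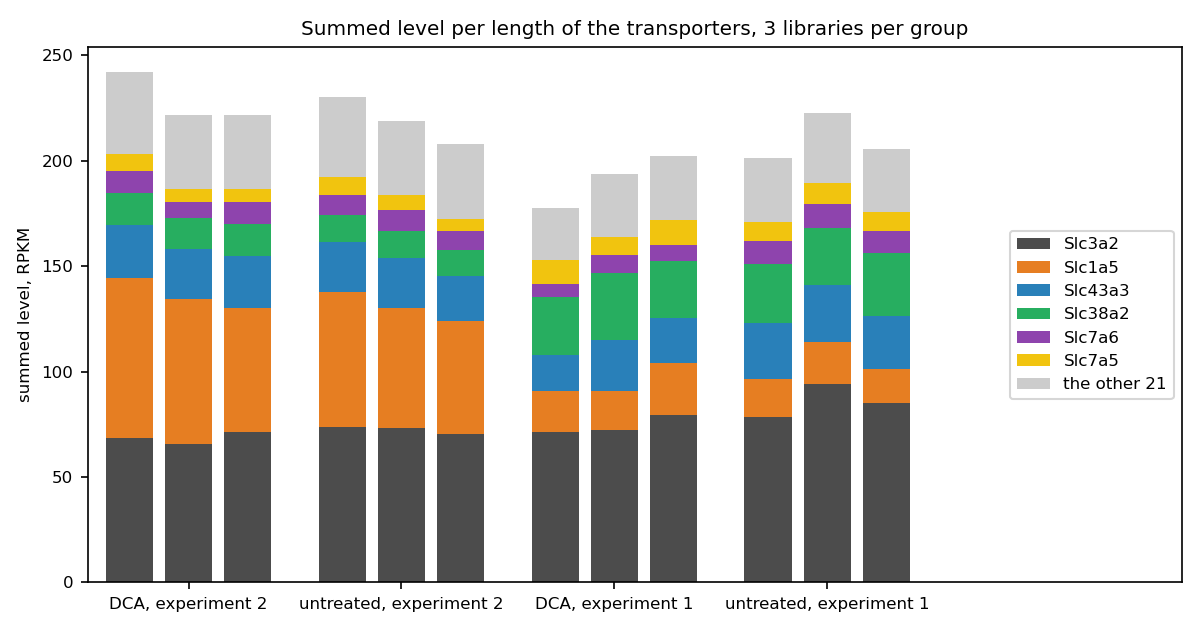
Summed level of the 27 transporters in RPKM in each of the 12 libraries, stacked by the leading genes and the rest. Slc1a5 makes up 26.5% to 31.3% in experiment 2 DCA, 25.7% to 27.8% in experiment 2 untreated, 9.73% to 12.3% in experiment 1 DCA and 8.04% to 9.03% in experiment 1 untreated libraries.

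Differences of at least 1 on the log2 scale were called for 11 of 29 members in untreated cells (28.6% of all genes) and 9 of 29 in DCA cells (28.4% of all genes). In untreated cells 9 were higher in experiment 2 and 2 lower, beside 16.6% and 12.1% of all genes. In DCA cells 8 were higher and 1 lower, beside 17% and 11.3%. Apart from Slc1a5 and Slc38a2 they were carriers of low level.

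Slc43a2 was higher in experiment 2 by log2 1.18 in DCA cells (SE 0.25, edgeR adjusted p = 0.000925) and 1.79 in untreated cells (SE 0.25, adjusted p = 2.4e-05). Its relative Slc43a1 (LAT3), with the same substrates, was higher by 1.56 in DCA cells (adjusted p = 0.0126) and 2.00 in untreated cells (adjusted p = 0.0028). The DCA call of Slc43a1 was lost without mouse 1's DCA library of experiment 1 (adjusted p = 0.0511) or mouse 3's DCA library of experiment 2 (0.0559). The third system L member went the other way: Slc7a5 was lower by -0.66 in DCA cells (SE 0.18, adjusted p = 0.00573), with -0.36 in untreated cells (adjusted p = 0.1).

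Slc6a19 (B0AT1), a sodium-coupled neutral amino acid carrier best known from kidney and gut, stood at 10.8 to 14.8 CPM in experiment 2 DCA, 7.76 to 14.9 CPM in experiment 2 untreated, 0.344 to 3.48 CPM in experiment 1 DCA and 1.43 to 2.08 CPM in experiment 1 untreated libraries. The experiments did not overlap, and the log2 difference was 2.92 in DCA cells (adjusted p = 0.000269) and 2.56 in untreated cells (edgeR adjusted p = 0.000716). The DCA value rests in part on mouse 2's DCA library of experiment 1, at 3.48 CPM, and was 4.15 without it. Slc6a13 (GAT2), a carrier of GABA and taurine, was higher by 2.12 in DCA cells (adjusted p = 8.32e-06) and 1.91 in untreated cells (adjusted p = 1.92e-05). Slc38a7 (SNAT7), a lysosomal glutamine exporter, was higher by 1.5 in DCA cells (adjusted p = 0.000135) and 1.17 in untreated cells (adjusted p = 0.00106).

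Slc7a4, which is grouped with the cationic carriers by sequence and has no established transport activity, stood at 1.25 to 3.03 CPM in experiment 2 DCA, 0.855 to 1.82 CPM in experiment 2 untreated, 0 to 1.15 CPM in experiment 1 DCA and 0.0353 to 0.273 CPM in experiment 1 untreated libraries. It was called in DCA cells (log2 2.47, SE 0.94, edgeR adjusted p = 0.0402) and untreated cells (3.30, SE 1.07, adjusted p = 0.0178). These sizes are poorly fixed: the DCA value was 5.27 without mouse 2's DCA library of experiment 1, and the untreated value 4.53 without mouse 1's untreated library of experiment 1 and 2.31 under cyclic loess with limma. Its DCA call was lost without any 1 of 5 libraries: DCA of mice 1 and 3 in either experiment and untreated of mouse 2 in experiment 2 (adjusted p = 0.0526 to 0.119). Its untreated call was lost without any 1 of 3: untreated of mice 2 and 3 of experiment 1 and mouse 3 of experiment 2 (adjusted p = 0.0529 to 0.0655).

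Slc38a8, known from the retina, had 41, 33 and 16 counts in experiment 2 DCA, 19, 6 and 9 in experiment 2 untreated, 0, 5 and 0 in experiment 1 DCA and 0, 0 and 1 in experiment 1 untreated libraries. It was called in both arms (adjusted p = 0.0122 in DCA and 0.0133 in untreated cells), and no fold is given because experiment 1 untreated cells had 1 count in all. Its DCA call was lost without mouse 1's DCA library of experiment 2 (adjusted p = 0.0512), and its untreated call without mouse 2's untreated library of experiment 1 (0.0526) and under cyclic loess with limma (0.0866). Slc7a7 was higher in experiment 2 by log2 2.60 in untreated cells (SE 1.01, edgeR adjusted p = 0.0426), with 0.86 in DCA cells (adjusted p = 0.411). That untreated call was kept in 4 of 12 fits that left out 1 library, and the others had adjusted p = 0.0501 to 0.151. Its size ranged from 1.98 to 7.24 in these fits, the highest without mouse 3's untreated library of experiment 1.

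Slc7a11 was lower in experiment 2, by log2 -3.71 in DCA cells (SE 0.62, edgeR adjusted p = 0.000134) and -2.16 in untreated cells (SE 0.56, adjusted p = 0.00481). The DCA value was -4.36 without mouse 2's DCA library of experiment 2. The 6 experiment 2 libraries, at 0.101 to 0.675 CPM, lay below the 6 experiment 1 libraries, at 1.04 to 4.17 CPM. Of the remaining members called between the experiments, Slc38a9 was higher in experiment 2 by 0.58 in DCA cells (adjusted p = 0.0171) and 0.62 in untreated cells (adjusted p = 0.0134). The members called in neither arm numbered 9. They include the taurine carrier Slc6a6, at 41.9 to 50.7 CPM in experiment 2 and 36.0 to 49.7 CPM in experiment 1.

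Genes that use, sense or respond to amino acids were read from 7 lists, which were chosen with earlier results of these data known. Their counts stand beside 7.01% of all genes called higher and 9.8% called lower with DCA over both experiments, 5.67% and 11% in experiment 1, and 4.57% called in either direction in experiment 2. For genes named from the lists, the SD (n = 6) takes both experiments together and includes the difference between them. The test has a term for experiment. Of 16 tested genes of glutamine and glutamate metabolism 0 rose and 4 fell with DCA over both experiments, with a list median of -0.17 beside -0.02 over all genes. Of these 16, 1 fell in experiment 2 and 3 fell in experiment 1. Ppat, which opens purine synthesis with glutamine, averaged 89.6 ± 17.9 CPM in DCA and 129 ± 28.4 CPM in untreated libraries (SD, n = 6 each; log2 -0.51, edgeR adjusted p = 0.000889). Got1, cytosolic aspartate aminotransferase, averaged 74.5 ± 15.8 CPM in DCA and 99.3 ± 11.3 CPM in untreated libraries (-0.43, adjusted p = 0.0055). Of 15 genes of serine, glycine and methionine metabolism 0 rose and 6 fell (list median -0.15). The calls differed by experiment, with 0 in experiment 2 (median -0.01) and 8 that fell in experiment 1 (median -0.30), and this difference between the lists' counts was not tested. Mthfd1, a folate enzyme, changed by -0.57 (adjusted p = 0.00562) and Mtap, of methionine salvage, by -0.36 (adjusted p = 0.00394). Of 15 genes of branched-chain amino acid catabolism 0 rose and 1 fell (list median 0.01), the cytosolic aminotransferase Bcat1 (-0.41, adjusted p = 0.0067). There 1 rose and 0 fell in experiment 2, and 0 rose and 2 fell in experiment 1.

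Among 13 genes of arginine and polyamine metabolism 2 rose and 2 fell (list median 0.04). By experiment, 3 rose and 0 fell in experiment 2, and 2 rose and 2 fell in experiment 1. Among the genes called over both experiments, those that rose break polyamines down and those that fell make them. The rest of the 13 were not called. Sat1, spermidine and spermine acetyltransferase, averaged 160 ± 88.8 CPM in DCA and 81.4 ± 37.5 CPM in untreated libraries (SD, n = 6 each; log2 0.92, edgeR adjusted p = 0.000165; higher in 6 of 6 mice). Smox, spermine oxidase, averaged 11.9 ± 5.86 CPM in DCA and 4.95 ± 2.26 CPM in untreated libraries (1.24, adjusted p = 0.00107; 6 of 6 mice). Odc1, ornithine decarboxylase, changed by -0.54 (adjusted p = 0.0217) and Amd1, S-adenosylmethionine decarboxylase, by -0.61 (adjusted p = 0.00285). Amd1 has a near-identical copy, Amd2, in the mouse genome, so its counts are uncertain. Odc1 lost its call under cyclic loess (adjusted p = 0.0884), without mouse 2's untreated library of experiment 1 (0.0521) and without mouse 2's DCA library of experiment 2 (0.0526).

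Of 35 genes that sense amino acids upstream of mTORC1 2 rose and 8 fell (list median -0.05). For experiment 2 the counts were 0 and 2, and for experiment 1 they were 3 and 9. Rragd, the Rag GTPase D, averaged 4.09 ± 2.7 CPM in DCA and 2.12 ± 1.82 CPM in untreated libraries (SD, n = 6 each; log2 1.17, edgeR adjusted p = 0.0141). Bmt2 (SAMTOR), an S-adenosylmethionine sensor, changed by 0.45 (adjusted p = 0.0152). Rheb, the GTPase that activates mTORC1, changed by -0.37 (adjusted p = 0.000332), and Sec13, a GATOR2 subunit also used in vesicle coats and nuclear pores, by -0.42 (adjusted p = 0.00112). Of 18 genes of the amino acid stress response through GCN2 and ATF4 2 rose and 0 fell (list median 0.14), Atf3 at 0.74 (adjusted p = 0.0104) and Nupr1 at 0.56 (adjusted p = 0.0434). None of the 18 was called in experiment 2 or in experiment 1 taken singly. Nupr1 kept its call in 3 of 12 fits that left out 1 library, and the others had adjusted p = 0.0508 to 0.0935.

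Among 18 tested amino acid carriers of other families 3 rose and 2 fell (list median 0.03). Taken by experiment, 2 rose and 1 fell in experiment 2, and 1 rose and 2 fell in experiment 1. Slc15a3, a lysosomal carrier of histidine and small peptides that myeloid cells express strongly, averaged 1.5 ± 0.896 CPM in DCA and 0.183 ± 0.168 CPM in untreated libraries (SD, n = 6 each; log2 3.06, edgeR adjusted p = 0.00148), beside the myeloid marker sums given with Slc7a7. Mitochondrial sideroflexins differed in direction. Sfxn3 averaged 31.0 ± 14.4 CPM in DCA and 19.3 ± 7.23 CPM in untreated libraries (0.64, adjusted p = 0.00243). Sfxn1, the mitochondrial serine importer, averaged 261 ± 23.2 CPM in DCA and 356 ± 26.2 CPM in untreated libraries (-0.45, adjusted p = 0.000691). Slc25a12, the mitochondrial aspartate-glutamate carrier, changed by -0.21 (adjusted p = 0.0465), a call kept in 2 of 12 fits that left out 1 library, the others at 0.0805 to 0.111.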

How the data were processed

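The authors deposited whole-number read counts per gene with no normalization, and a table of their own DCA comparison with log2 fold changes, log2 CPM, p-values and FDR, per the file headers. Gene lengths deposited in that table, read as bases, were used for RPKM. The submitters' processing notes name the build GRCm39 with STAR 2.7.10a, fastp 0.23.2 and edgeR 3.36.0. Read counter, annotation and strandedness: not given in the sources used here. Without strand, overlapping opposite-strand genes cannot be told apart, and 6 of the 29 members share exon sequence with one.

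All 12 libraries were fitted together with R 4.3.3 and edgeR 4.0.16, whose quasi-likelihood test used TMM scaling on the 15688 genes kept by filterByExpr (4 groups) and called genes at a Benjamini-Hochberg adjusted p under 0.05. DCA over both experiments had a term for experiment, and the other comparisons were contrasts of 4 group means. SE is the size of the log2 change over the root of its F statistic. CPM is TMM-scaled in results on single genes, and per library total for the marker sums, from which 1 marker was left out and is not reported here. The fit was also run on simulated data with known changes. Those libraries were drawn independently, so that run does not address the pairing by mouse. No value column was left unmatched (0 columns), and libraries of a group differed beyond sampling noise (chi-square per degree of freedom 10.8 to 29.8).

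The same mouse gave both arms, so the libraries are paired by design; deviations from the group means correlated at 0.0523 to 0.184 within a mouse and at -0.115 to 0.035 between mice. Named in full were the called members, 10 fixed carriers, the 5 highest by RPKM, members differing by at least 1 (log2) between experiments, and up to 2 genes per direction from each list. The members and lists were chosen with earlier results of these data known. Alternatives were RLE factors, cyclic loess with limma 3.58.1, limma-voom, DESeq2 1.42.0, no filter, 5 CPM in 3 libraries, a term per mouse, no experiment term, 1 experiment alone, and each library left out in turn. Promoters are RefSeq's, GRCm38.p6, and overlaps were read from GENCODE's GRCm38 annotation for names only.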

Additional observations from a re-analysis of the deposited data

How the results depend on the processing

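Counts of called members moved as follows. Over both experiments the 4 calls became 0 without the experiment term. In experiment 1 the 5 calls became 3 with a filter of 5 CPM in 3 libraries (Slc38a1 and Slc43a3 lost, Slc7a7 not tested, Slc38a9 gained), 3 under cyclic loess (Slc38a1 and Slc43a3 lost) and 1 (Slc36a3os) when that experiment was fitted alone. In experiment 2 the 0 calls became 1 (Slc38a2) under cyclic loess and 1 (Slc38a2) when it was fitted alone. For the difference of the effects, 0 became 1 (Slc7a6) with no filter on low counts. Leaving out 1 library at a time gave 1 to 5 calls over both experiments, 1 to 6 in experiment 1, 0 to 1 in experiment 2, 0 for the difference, and 12 to 18 between the experiments in untreated and in DCA cells. Where a group kept 2 libraries, its spread was taken from the shared fit.

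With a term per mouse (replicate block), 3 members were called over both experiments and 4 in experiment 1. Slc38a1 was lost in both (-0.23, adjusted p = 0.0784, and -0.32, adjusted p = 0.0501). No member was called in experiment 2 or for the difference, and the calls over all genes were 2094, 2349, 544 and 24, against 2638, 2622, 717 and 52 without the block. Of the list genes named, Slc25a12 was lost (adjusted p = 0.117). For the difference alone the block moved the count by over 1.5 times.

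Small changes turned sign. Slc1a4 over both experiments was 0.0304 with the filter of 5 CPM and between -0.11 and 0.12 with 1 library left out, against -0.01. Slc43a2 ranged from -0.2144 to 0.0092 and Slc7a5 from -0.0016 to 0.14 with 1 library left out. Of 1087 recomputed values of 57 single results, 944 kept direction and side of the threshold, 130 fell below it, 6 passed it and 7 turned sign; the cause was not tested. Without the experiment term, Slc38a9 kept its size (0.50) at adjusted p = 0.484. Between the experiments, dropping the filter on low counts moved the all-gene median in untreated cells to 0.63. Depth limits Slc7a7, Slc7a11, Slc7a4, Slc38a8 and Slc6a8, which had 475 counts or fewer in total.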
